A study of Homo sapiens with 12 samples.

Results

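The genes described are 43 members of the DNA replication and G1/S programme, chosen by symbol. They comprise 10 genes of origin licensing, 6 of helicase activation, 7 of the replicative polymerases and primase, 7 of the clamp, clamp loader and Okazaki fragment joining, 4 of nucleotide supply, 5 of G1/S control and 4 of chromatin and histone supply in S phase. Levels are log2 values as deposited, and a gene passed where its p-value in limma, adjusted over 18417 genes by the Benjamini-Hochberg method, was under 0.05. All 43 had a probe set annotated to their symbol alone, as did 18417 genes in all. UHRF1 had 2 such probe sets, and the brighter stood for the gene. The study measured total RNA on 12 single-colour expression arrays, 8 of U-H01, a Hodgkin lymphoma line, and 4 of HBL-1, a line of diffuse large B-cell lymphoma. All arrays came from cells transduced with doxycycline-inducible short hairpins against RelB and cRel, 2 subunits of the transcription factor NF-kB, with 2 hairpin sequences per target. Each transduced population was divided, 1 portion received doxycycline and the other did not, and 2 time points of unstated length were taken. The groups are U-H01 labelled induced with 4 arrays, U-H01 uninduced with 4, HBL-1 induced with 2 and HBL-1 uninduced with 2. U-H01 arrays come from populations named B1 and B2 and HBL-1 arrays from a population named C, at both time points each, and the labels do not say which hairpin a letter stands for. No untransduced cells and no knock-down of RelA were analysed here. The labels do not state whether the arrays of a group are independent cultures, and every p-value rests on the spread among these arrays alone, part of which may be technical.

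DNA is copied once per cell cycle. In G1, the origin recognition complex with CDC6 and CDT1 loads the MCM helicase ring onto origins. In S phase, MCM10, CDC45 and the GINS complex switch the ring on, primase and polymerase alpha start new strands, and polymerases epsilon and delta extend them behind the PCNA clamp, which the RFC complex loads. Entry into S phase runs through cyclin E and the E2F transcription factors, which are held by the retinoblastoma protein and switch on many of the other genes described here. In dividing lymphoma lines the bulk level of these messages follows both the share of cells in S phase and the RNA per cell. Fewer cells in S phase and less RNA per cell cannot be told apart in these bulk arrays.

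The U-H01 arrays stood apart by label before any replication gene was considered. Over all genes, arrays of a group correlated at 0.991 to 0.996 and induced with uninduced HBL-1 arrays at 0.992 to 0.994, whereas U-H01 arrays labelled induced correlated with uninduced U-H01 arrays at 0.893 to 0.909. That is no closer than the 0.903 to 0.915 between U-H01 arrays labelled induced and HBL-1 arrays. Between the U-H01 labels 186 genes passed the test with over 16-fold differences, and between the HBL-1 groups 0 did. Among markers, CD79A, part of the B-cell receptor, lay between 10.75 and 11.34 on the log2 scale in the arrays labelled induced, against 5.56 to 5.84 in uninduced ones, and TNFRSF8, which encodes CD30, between 11.47 and 11.68 against 6.65 to 7.09. GATA3, a transcription factor of T cells that Hodgkin cells also express, lay between 4.65 and 5.05 in the arrays labelled induced, against 9.57 to 10.43 in uninduced ones. Of the 6 measured B-cell markers 4 rose and 0 fell, with array medians of 8.43 to 8.98 in the arrays labelled induced and 5.82 to 5.95 in uninduced ones. PAX5, a transcription factor of B cells, rose by 2.76. Of 8 Hodgkin cell markers 2 rose and 5 fell, and the receptor gene IL13RA1 fell by 6.84 and PDCD1LG2, which encodes PD-L2, by 5.04. Markers of T and NK cells had array medians between 4.52 and 4.76, and 7 of 7 measured myeloid markers averaged under 6 in every group. RELB itself differed by -0.15 ± 0.09 (SE, adjusted p = 0.209) between the U-H01 labels and REL, the gene of cRel, by 0.20 ± 0.09 (adjusted p = 0.0716). In HBL-1, REL differed by -0.49 ± 0.12 (adjusted p = 0.121), with 9.13 and 9.37 in induced arrays against 9.70 and 9.78 in uninduced ones, and RELB by -0.19 ± 0.12 (adjusted p = 0.744). The U-H01 comparison is therefore given as a difference between labels and not as an effect of doxycycline.

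Promoters are shown for the genes that carry the comparisons below, with E2F-type octamers in capitals. The octamers searched were TTTCCCGC, TTTCGCGC, TTTGCCGC and TTTGGCGC on either strand, in the 250 bases before the start site, from RefSeq on build GRCh38.p14, where 38 of 43 members had an entry. At least 1 octamer was found in 16 of the 38 (42.1%), against 979 of all 35116 promoters of the same length (2.79%). The box CCAAT was found in 21 of the 38 (55.3%), against 32% of all. E2F1, GINS2, MCM6 and POLE had the smallest p-values in HBL-1, and PRIM1 and E2F2 the largest lower and higher values between the U-H01 labels. All 6 lie on the minus strand: E2F1 at chr20:33686386-33686635, GINS2 at chr16:85688955-85689204, MCM6 at chr2:135876444-135876693, POLE at chr12:132687343-132687592, PRIM1 at chr12:56752324-56752573 and E2F2 at chr1:23531234-23531483.
E2F1: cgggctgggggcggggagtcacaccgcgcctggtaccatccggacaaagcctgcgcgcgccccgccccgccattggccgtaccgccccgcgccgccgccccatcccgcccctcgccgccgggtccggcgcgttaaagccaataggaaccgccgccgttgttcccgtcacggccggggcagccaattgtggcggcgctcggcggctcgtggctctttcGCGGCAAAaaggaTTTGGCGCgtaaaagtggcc
GINS2: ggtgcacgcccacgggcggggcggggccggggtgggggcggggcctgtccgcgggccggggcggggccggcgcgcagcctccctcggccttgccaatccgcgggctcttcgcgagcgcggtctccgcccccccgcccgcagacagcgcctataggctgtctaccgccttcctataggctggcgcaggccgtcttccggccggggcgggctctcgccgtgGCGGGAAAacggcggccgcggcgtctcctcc
MCM6: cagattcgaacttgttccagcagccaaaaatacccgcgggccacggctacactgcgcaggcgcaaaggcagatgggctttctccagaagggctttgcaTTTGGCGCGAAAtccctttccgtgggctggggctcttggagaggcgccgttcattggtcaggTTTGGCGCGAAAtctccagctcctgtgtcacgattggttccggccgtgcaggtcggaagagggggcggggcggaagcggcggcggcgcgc
POLE: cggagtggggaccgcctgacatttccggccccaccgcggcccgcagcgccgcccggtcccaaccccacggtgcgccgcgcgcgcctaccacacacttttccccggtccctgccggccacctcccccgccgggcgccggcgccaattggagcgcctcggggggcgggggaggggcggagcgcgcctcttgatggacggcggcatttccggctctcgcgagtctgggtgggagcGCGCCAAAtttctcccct
PRIM1: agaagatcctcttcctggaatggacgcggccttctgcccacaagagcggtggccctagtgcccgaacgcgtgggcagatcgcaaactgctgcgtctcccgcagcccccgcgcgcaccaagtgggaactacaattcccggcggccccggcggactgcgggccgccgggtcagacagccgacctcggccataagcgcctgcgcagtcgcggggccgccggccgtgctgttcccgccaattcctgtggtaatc
E2F2: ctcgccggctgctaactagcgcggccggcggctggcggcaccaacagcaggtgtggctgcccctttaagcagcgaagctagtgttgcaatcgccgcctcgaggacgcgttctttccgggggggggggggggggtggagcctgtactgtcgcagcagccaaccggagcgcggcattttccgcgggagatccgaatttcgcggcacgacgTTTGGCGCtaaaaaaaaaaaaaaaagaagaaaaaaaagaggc
E2F1 held 2 octamers and MCM6 held 4, as 2 runs of capitals that each join a pair of overlapping octamers. GINS2, POLE and E2F2 held 1 each, starting 31, 18 and 42 bases before the start site, and the PRIM1 window held none of these letters. These 6 were chosen by result. Between the U-H01 labels, an octamer was found in 4 of 9 members higher, 5 of 13 lower and 7 of 16 not called. Between the uninduced lines it was found in 2 of 5 higher, 6 of 22 lower and 8 of 11 not called. A match is a string of letters and not a measured binding site.

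**Figure D1:**
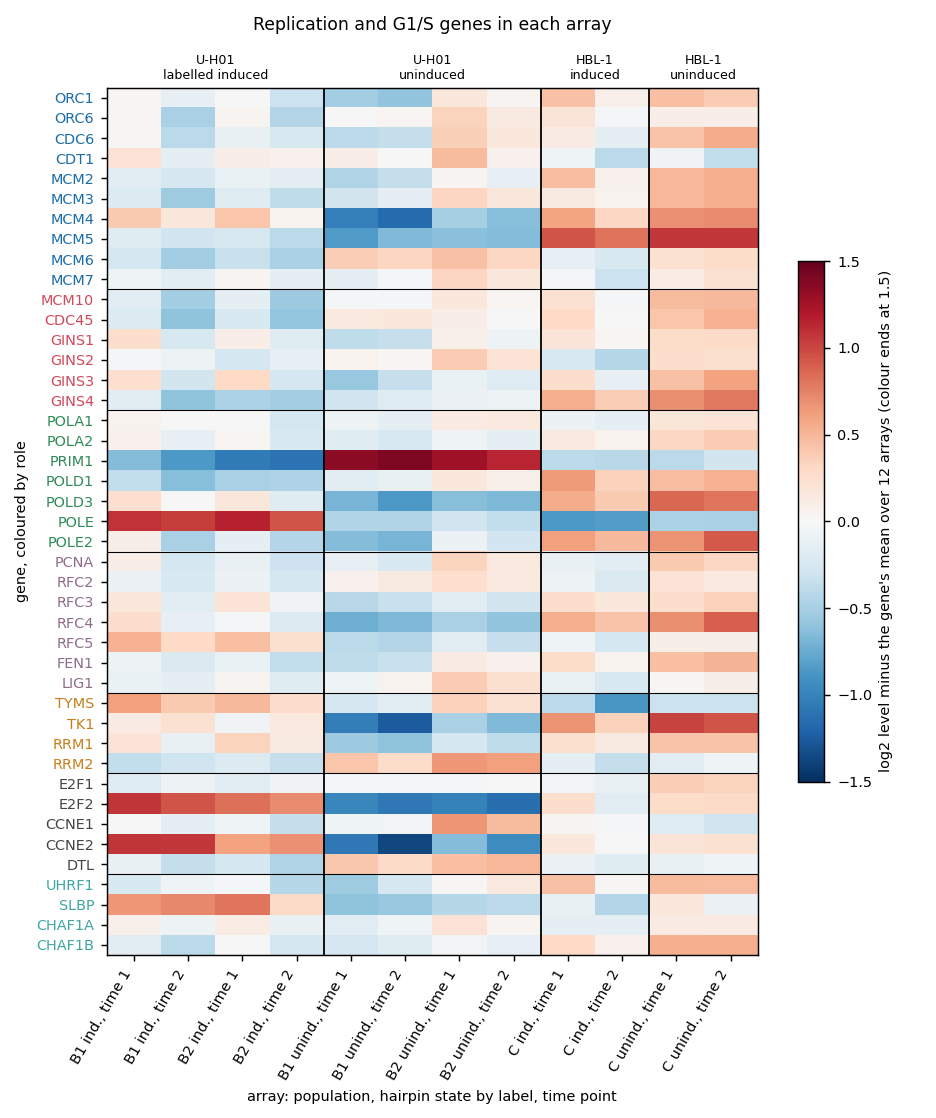
Log2 level of each of the 43 genes on each of the 12 arrays, as colour, minus the gene's mean over the 12 arrays. Rows are genes grouped by role and columns are arrays grouped by label. PRIM1 is low and POLE, E2F2 and CCNE2 are high in the U-H01 arrays labelled induced, and most rows are paler or bluer in induced than in uninduced HBL-1 arrays.

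The member with the highest mean over the 12 arrays in each role gives the scale of these messages, and all were well above the array medians of 5.79 to 5.88. MCM3, a subunit of the helicase ring, averaged 10.05 ± 0.17 in U-H01 arrays labelled induced and 10.39 ± 0.27 in uninduced ones (SD, n = 4 each), and 10.46 ± 0.06 in induced and 10.90 ± 0.03 in uninduced HBL-1 arrays (SD, n = 2 each). TYMS averaged 10.82 ± 0.15 in U-H01 arrays labelled induced and 10.42 ± 0.29 in uninduced ones, and 9.74 ± 0.34 in induced and 10.05 ± 0.003 in uninduced HBL-1 arrays. PCNA averaged 10.32 ± 0.19 in U-H01 arrays labelled induced and 10.50 ± 0.26 in uninduced ones, and 10.33 ± 0.03 in induced and 10.82 ± 0.06 in uninduced HBL-1 arrays. MCM3 was thus highest in uninduced HBL-1 arrays and TYMS in U-H01 arrays. GINS1 group means lay between 9.13 and 9.59, those of CHAF1A between 9.22 and 9.49, those of DTL between 9.15 and 9.86 and those of PRIM1 between 8.81 and 11.01.

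In HBL-1, nearly every replication gene lay slightly lower in induced than in uninduced arrays, but no single gene passed the test. Of 43 members, 42 had a log2 difference below 0, with a median of -0.27 against -0.01 over all genes. In limma, 0 members passed at an adjusted p under 0.05, where 0.608% of all genes passed. At an unadjusted p under 0.05, 19 members were lower, where 4.59% of all genes were, and 0 were higher, where 5.22% were. Fitted alone, with 1 residual degree of freedom, the 4 HBL-1 arrays gave 8 members lower (CDC6, MCM3, MCM6, GINS2, GINS3, PCNA, TK1 and E2F1) among 945 genes called. Without the 4 U-H01 arrays labelled induced, the fit gave 2 members lower, GINS2 and PCNA, among 322.

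Both HBL-1 pairs leaned the same way. At time point 1, 37 of 43 members were lower in the induced array, with a median of -0.15, and at time point 2, 42 were, with a median of -0.40. In 37 members both pairs were lower, where 30.3% of all genes were lower in both, and in 35 both induced arrays lay below both uninduced arrays, where 21.6% of all genes did. The exception was CCNE1, which encodes cyclin E1, the 1 member higher in both pairs, where 26.6% of all genes were, and higher without overlap, where 19.7% were. It was at 8.56 and 8.51 in induced arrays, against 8.33 and 8.22 in uninduced arrays, and its difference of 0.26 ± 0.19 (SE) did not pass (adjusted p = 0.788). ORC6, PRIM1, POLD1, RRM2 and DTL were lower in the later pair alone, and the induced and uninduced arrays of ORC1, ORC6, CDT1, PRIM1, POLD1, RRM2 and DTL overlapped.

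The members with the smallest p-values in HBL-1, named after their values were seen, came from 5 different roles. E2F1, the transcription factor that drives S-phase genes, was at 7.84 and 7.77 in induced arrays, against 8.24 and 8.21 in uninduced arrays. GINS2, a subunit of the helicase-activating GINS complex, was at 8.79 and 8.58 in induced arrays, against 9.27 and 9.25 in uninduced arrays. MCM6, a subunit of the helicase ring, was at 10.10 and 10.00 in induced arrays, against 10.44 and 10.49 in uninduced arrays. For these 3 genes the groups did not overlap and were separated by more than the arrays of each group were. Their differences were -0.42 ± 0.10 for E2F1 (SE, adjusted p = 0.107), -0.58 ± 0.14 for GINS2 (adjusted p = 0.109) and -0.42 ± 0.11 for MCM6 (adjusted p = 0.127). POLE, the catalytic subunit of the leading-strand polymerase epsilon, was at 7.62 and 7.65 in induced arrays, against 8.0044 and 7.99 in uninduced arrays, a difference of -0.36 ± 0.11 (adjusted p = 0.206). PCNA, the sliding clamp, was at 10.36 and 10.31 in induced arrays, against 10.86 and 10.78 in uninduced arrays, a difference of -0.49 ± 0.16 (adjusted p = 0.26). The 95% interval of the GINS2 difference ran from -0.88 to -0.27 and that of PCNA from -0.82 to -0.15.

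**Figure D2:**
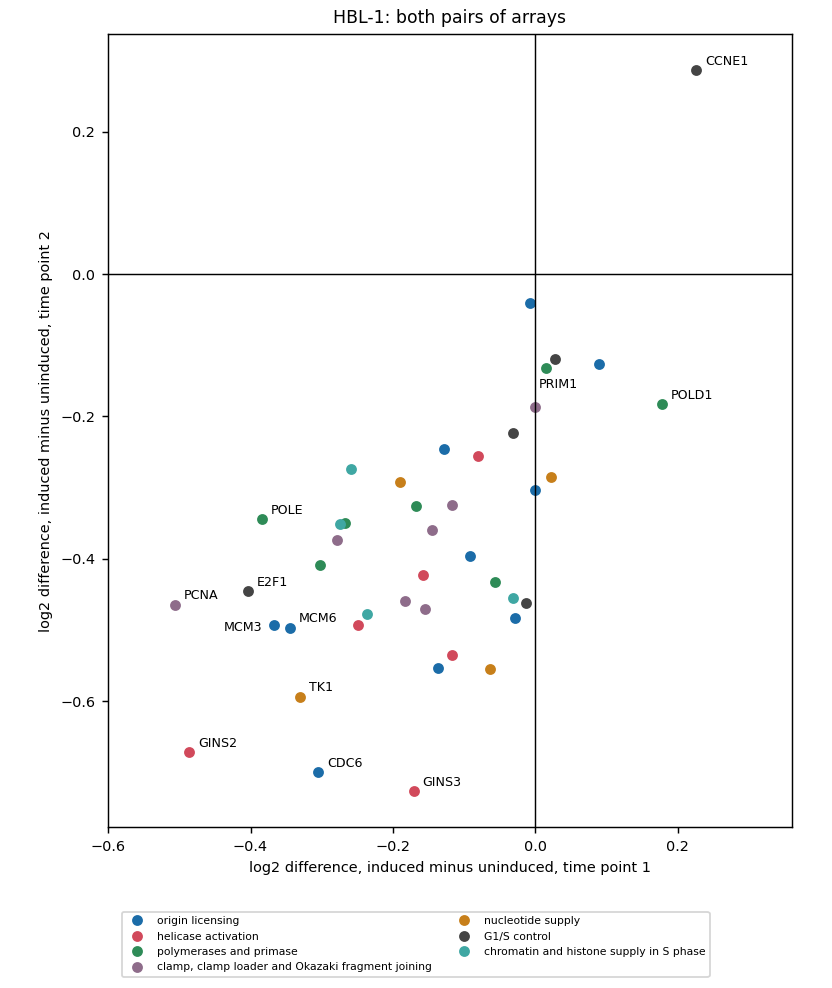
Log2 difference of each of the 43 genes in HBL-1, induced minus uninduced, at time point 1 on the x axis and time point 2 on the y axis, coloured by role. Points lie in the lower left except CCNE1 at the upper right and the 5 genes that were above 0 at time point 1 alone.

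By role, the HBL-1 medians ran from -0.13 for the 5 G1/S control genes to -0.35 for the 6 helicase activation genes. The 10 licensing genes had a median of -0.25, the 7 polymerase and primase genes -0.25, the 7 clamp and joining genes -0.31, the 4 nucleotide supply genes -0.28 and the 4 chromatin genes -0.29. Other gene lists of the cell cycle, drawn up beside the members, lay nearer to 0. The 35 other replication factors had a median of -0.08 with 0 called, the 19 other S-phase genes -0.13 with 0 called, the 15 E2F and RB family genes -0.08 with 0 called and the 20 mitosis genes -0.12 with 0 called. At an unadjusted p under 0.05 in limma, 4.59% of all genes were lower and 5.22% higher. Of the 35 other replication factors 3 were lower and 1 higher, and of the 19 other S-phase genes 1 and 0. Of the 15 E2F and RB family genes 2 were lower and 1 higher, and of the 20 mitosis genes 1 and 0. In the E2F and RB list, RBL1, which encodes the pocket protein p107, differed by -0.48 ± 0.13 (SE, adjusted p = 0.142). Among the mitosis genes, BIRC5, which encodes survivin, differed by -0.47 ± 0.14 (adjusted p = 0.222). Of the 11 other nucleotide supply genes, 1 rose, SAMHD1, which breaks down deoxynucleotides, by 0.59 ± 0.11 (adjusted p = 0.0319). Of 8 markers of activated B-cell-like lymphoma, 2 fell in the same arrays, TNFRSF13B, which encodes the receptor TACI, by 0.65 (adjusted p = 0.0174) and the kinase gene PIM1 by 0.64 (adjusted p = 0.0332), and 0 of 6 B-cell markers passed. The part of these markers in the members' differences was not tested.

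Between the U-H01 labels, the replication genes went both ways, as did all genes. Members of the same complex were among the higher and the lower ones. Of 43 members, 27 passed (62.8%), where 45.8% of all genes passed. There were 13 higher, where 22.4% of all genes were, and 14 lower, where 23.5% were, and the median was -0.06 against 0.03 over all genes. E2F2, an S-phase transcription factor, CCNE2, which encodes cyclin E2, and POLE were the largest rises, and PRIM1, the catalytic subunit of primase, the largest fall. In 12 members all 4 arrays labelled induced lay above all 4 uninduced arrays, where 20% of all genes did, and in 10 all lay below, where 21.1% did. The markers given above differ between the same arrays, and their part in these differences was not tested.

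**Figure D3:**
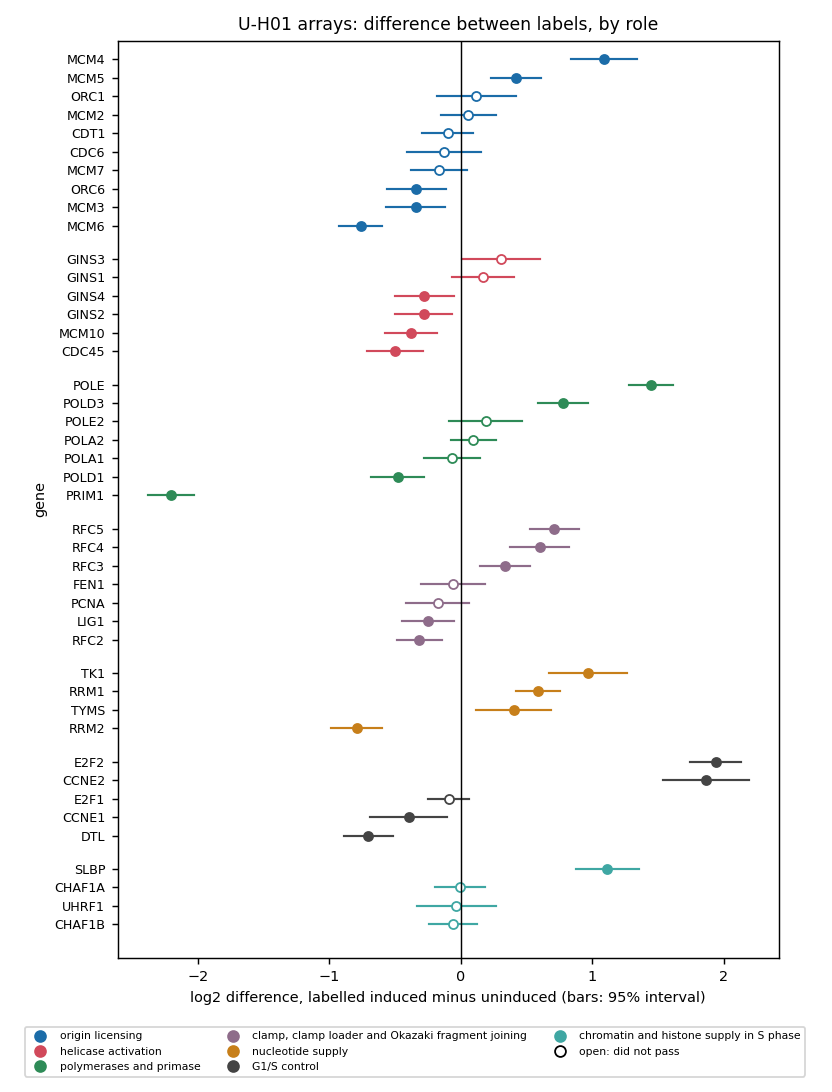
Log2 difference between U-H01 arrays labelled induced and uninduced U-H01 arrays for each of the 43 genes, by role, with 95% intervals as bars. Filled points passed the test at an adjusted p under 0.05 and open points did not. All 7 roles have points on both sides of 0, and PRIM1 at -2.21 and E2F2 at 1.94 are the extremes.

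PRIM1, which makes the RNA primers of new strands, was at 9.07 and 8.86 in B1 arrays labelled induced and at 8.68 and 8.62 in B2 arrays labelled induced. In uninduced arrays it was at 11.07 and 11.13 in B1 and at 10.99 and 10.86 in B2. The groups lay about 2 log2 units apart with no overlap, and PRIM1 fell by 2.21 ± 0.08 on the log2 scale (SE, adjusted p = 1.91e-10), a 4.62-fold difference. E2F2 was at 9.03 and 8.91 in B1 arrays labelled induced and at 8.79 and 8.68 in B2 ones, against 6.98 and 6.89 in uninduced B1 arrays and 6.95 and 6.83 in uninduced B2 arrays. CCNE2 was at 8.71 and 8.70 in B1 arrays labelled induced and at 8.24 and 8.31 in B2 ones, against 6.57 and 6.27 in uninduced B1 arrays and 6.98 and 6.69 in uninduced B2 arrays. Neither gene's groups overlapped, and the rises were 1.94 ± 0.09 for E2F2 (adjusted p = 1.69e-09) and 1.86 ± 0.15 for CCNE2 (adjusted p = 3.78e-07). Their relatives behaved otherwise. E2F1 differed by -0.09 ± 0.07 (adjusted p = 0.336), with 7.69 to 7.83 in arrays labelled induced against 7.85 to 7.87 in uninduced arrays, a gap that did not pass. CCNE1 fell by 0.40 ± 0.14 (adjusted p = 0.0292), but its pairs differed by 0.06 and -0.10 in B1 and by -0.72 and -0.83 in B2. DTL, the adaptor of the ubiquitin ligase that removes CDT1 in S phase, fell by 0.70 ± 0.09 (adjusted p = 1.98e-05).

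**Figure D4:**
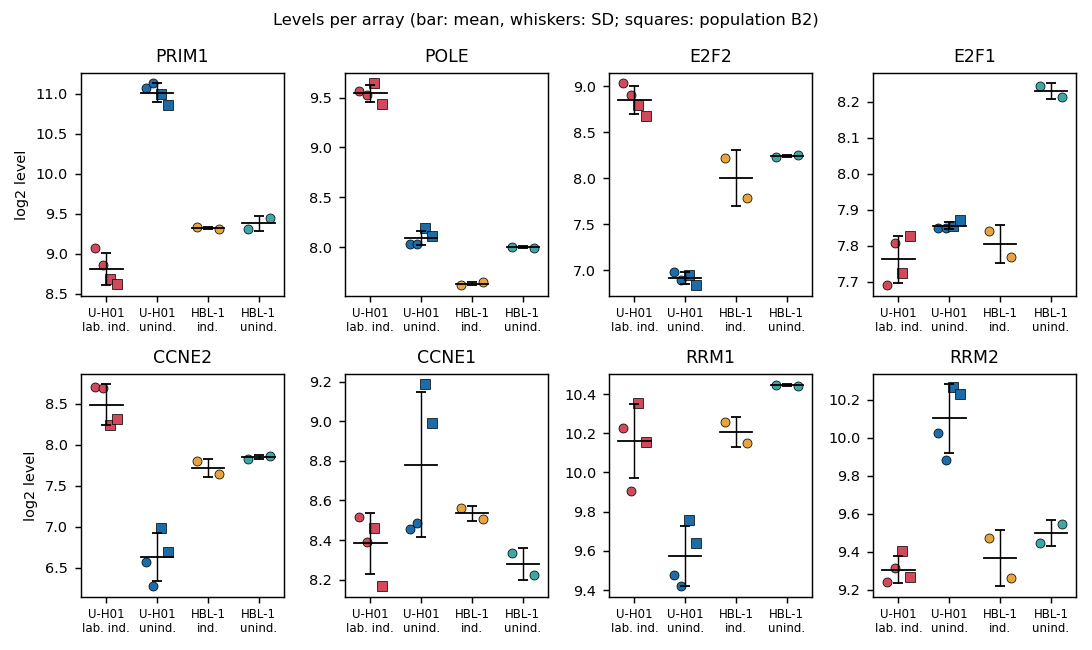
Log2 level of 8 genes on each array, by group, with the mean as a bar and the SD as whiskers (n = 4 for U-H01 groups, n = 2 for HBL-1 groups), squares marking population B2. The y axes differ between genes and do not start at 0. PRIM1 and RRM2 are lower and POLE, E2F2, CCNE2 and RRM1 higher in U-H01 arrays labelled induced than in uninduced U-H01 arrays. For RRM1 and RRM2 the uninduced U-H01 arrays are the group that stands apart, at means of 9.57 and 10.10. E2F1 is highest in uninduced HBL-1 arrays.

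Among the polymerases, POLE was at 9.57 and 9.52 in B1 arrays labelled induced and at 9.64 and 9.43 in B2 ones, against 8.04 on both uninduced B1 arrays and 8.19 and 8.11 on uninduced B2 arrays. It rose by 1.45 ± 0.08 (SE, adjusted p = 6.51e-09), 2.73-fold, and its groups did not overlap. POLD3, an accessory subunit of the lagging-strand polymerase delta, rose by 0.77 ± 0.09 (adjusted p = 8.63e-06), while POLD1, the catalytic subunit of the same enzyme, fell by 0.48 ± 0.09 (adjusted p = 0.000847). POLA1 and POLA2 of polymerase alpha and POLE2, an accessory subunit of polymerase epsilon, did not pass, at -0.06, 0.10 and 0.19.

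Within the helicase ring, MCM4 and MCM5 rose by 1.09 ± 0.12 (SE, adjusted p = 4.71e-06) and 0.42 ± 0.09 (adjusted p = 0.00129), and MCM6 and MCM3 fell by 0.76 ± 0.08 (adjusted p = 2.62e-06) and 0.34 ± 0.10 (adjusted p = 0.0136). MCM6 was at 9.96 and 9.70 in B1 arrays labelled induced and at 9.89 and 9.73 in B2 ones, against 10.59 and 10.54 in uninduced B1 arrays and 10.66 and 10.54 in uninduced B2 arrays, with no overlap. MCM2 and MCM7 did not pass, at 0.06 and -0.17. Of the origin recognition subunits, ORC6 fell by 0.34 ± 0.10 (adjusted p = 0.0158), and ORC1 at 0.12, like the loaders CDC6 at -0.13 and CDT1 at -0.10, did not pass. With the values as deposited, helicase activation was the role whose calls were falls alone. CDC45 fell by 0.50 ± 0.10 (adjusted p = 0.00082), MCM10 by 0.38 ± 0.09 (adjusted p = 0.00354), and GINS2 and GINS4 by 0.28 each (adjusted p = 0.0328 and 0.0456). GINS1, at 0.17, and GINS3, at 0.30, did not pass. With each array centred on its median, GINS1 and GINS3 were called higher, and CDC45 alone of this role was called lower.

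In the clamp loader, RFC5, RFC4 and RFC3 rose by 0.71, 0.60 and 0.34, and RFC2 fell by 0.32 (adjusted p between 1.3e-05 and 0.00635). LIG1, the ligase that seals Okazaki fragments, fell by 0.25 ± 0.09 (SE, adjusted p = 0.0394), and PCNA at -0.18 and FEN1, the flap nuclease, at -0.06 did not pass. In nucleotide supply, the subunits of ribonucleotide reductase, which makes deoxynucleotides, differed in opposite directions. RRM2, the small subunit, was at 9.24 and 9.32 in B1 arrays labelled induced and at 9.41 and 9.27 in B2 ones, against 10.02 and 9.88 in uninduced B1 arrays and 10.27 and 10.23 in uninduced B2 arrays. It fell by 0.79 ± 0.09 (adjusted p = 7.4e-06), and RRM1, the large subunit, rose by 0.59 ± 0.08 (adjusted p = 3.42e-05), neither with overlap. TK1, the thymidine kinase of the salvage route, rose by 0.97 ± 0.14 (adjusted p = 5.75e-05), and TYMS, thymidylate synthase, by 0.40 ± 0.13 (adjusted p = 0.0229). SLBP, which binds the stem-loop of histone messages, rose by 1.11 ± 0.11 (adjusted p = 2.62e-06). The chromatin assembly subunits CHAF1A, at -0.01, and CHAF1B, at -0.06, and the methylation factor UHRF1, at -0.03, did not pass.

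The smaller calls between the U-H01 labels moved with scaling and with single arrays. Centring each array on its median shifted all genes by 0.15 and gave 17 members higher and 6 lower (73.9% of those called higher, against 48.1% as deposited), with a median of 0.09 over the members. Under it ORC6, MCM3, MCM10, GINS2, GINS4, RFC2, LIG1 and CCNE1 were no longer called and GINS1, GINS3, POLA2 and POLE2 were called higher. The count lower was 9 without the uninduced B2 array of time point 1, 8 without that of time point 2 and 8 without the B2 array labelled induced of time point 2. In these and the other fits with an array left out, calls were lost for TYMS, ORC6, GINS4, LIG1, MCM3, GINS2 and CCNE1 alone, at adjusted p up to 0.163. With each pair of arrays as a replicate block, 26 of the 27 calls were kept, and GINS4 was lost (adjusted p = 0.0553).

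Neighbouring genes on the chromosome gave context for the members that differed by 0.70 or more in either direction between the U-H01 labels. The 5 measured genes on each side in RefSeq order were taken, and over all genes 22.4% rose and 23.5% fell. Around RRM2, 8 of 10 neighbours fell and 0 rose, with a median of -1.10, and around DTL 8 of 10 fell and 0 rose, with a median of -0.61. Around PRIM1, 4 of 10 fell and 1 rose, and the median was -0.09. Around E2F2 2 rose and 1 fell (median 0.05), around CCNE2 2 rose and 4 fell (median 0.02), and around POLE 4 rose and 2 fell (median 0.10). Around MCM6, which was lower, 4 of 10 rose and 0 fell, with a median of 0.16. For SLBP 5 rose and 1 fell (median 0.305), and for MCM4 3 rose and 1 fell (median 0.004). For TK1 5 rose and 1 fell (median 0.25), for POLD3 4 rose and 2 fell (median 0.08). The neighbours of RFC5 had 5 that rose and 2 that fell (median 0.31). RRM2 and DTL thus lay among genes that were mostly lower in the same arrays, and MCM6 did not. SLBP, TK1 and RFC5, which were higher, each had 5 of 10 neighbours higher.

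The U-H01 comparison was also made within B1 and within B2. All 4 pairs were higher in 13 members, where 27.4% of all genes were, and lower in 11, where 26.1% were. B1 and B2 were given their own induction terms in the same fit of 8 terms to all 12 arrays. B1 then gave 16 members higher, where 18.8% of all genes were, and 6 lower, where 20.9% were (39.7% called). B2 gave 11 higher, where 18.2% of all genes were, and 17 lower, where 19.4% were (37.6% called). Over the members, the B1 pairs had medians of 0.25 and 0.06, and the B2 pairs -0.13 and -0.15. The difference between the 2 changes passed for 0 members in limma, where 0.608% of all genes passed, 0.38% higher and 0.228% lower. At an unadjusted p under 0.05 it was lower in B2 for 14, where 5.03% of all genes were lower, and higher for 0, where 6.5% were. The smallest adjusted p-values were those of CCNE2 (-0.84 ± 0.18, SE, adjusted p = 0.0644), CCNE1 (-0.76 ± 0.16, adjusted p = 0.0669) and ORC1 (-0.77 ± 0.17, adjusted p = 0.0681). Testing only genes above the median level called these 3, and the trend and robust options called 4, the same 3 and PCNA.

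The populations already differed without induction. In uninduced arrays 5 members passed, where 3.44% of all genes did, with 5 higher in B2 than in B1 and 0 lower, where 0.874% of all genes were higher and 2.57% lower, with a median of 0.25 over the members against 0.02 over all genes. At an unadjusted p under 0.05, 20 were higher, where 7.04% of all genes were, and 0 lower, where 10.7% were. In 38 of 43 members both uninduced B2 arrays lay above both uninduced B1 arrays, where 26.7% of all genes did, and 2, CDC45 and PRIM1, lay below, where 25.1% did. In the arrays labelled induced, 1 member lay above without overlap, where 15.1% of all genes did, and 5 below, where 14.8% did.

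ORC1, the largest subunit of the origin recognition complex, was at 8.50 and 8.37 in uninduced B2 arrays, against 7.80 and 7.74 in uninduced B1 arrays. CDC6, which loads the helicase with it, was at 9.50 and 9.30 in uninduced B2 arrays, against 8.75 and 8.79 in uninduced B1 arrays. CCNE1 was at 9.19 and 8.99 in uninduced B2 arrays, against 8.45 and 8.49 in uninduced B1 arrays. None of the 3 overlapped, and the differences were 0.66 ± 0.12 for ORC1 (SE, adjusted p = 0.0122), 0.63 ± 0.13 for CDC6 (adjusted p = 0.0279) and 0.62 ± 0.11 for CCNE1 (adjusted p = 0.0145). TK1 was higher by 0.57 ± 0.13 (adjusted p = 0.0366) and MCM4 by 0.52 ± 0.12 (adjusted p = 0.0349). Mitosis genes went the same way in these arrays, with 0 of 20 below 0, where 8569 of 18417 genes were, and a median of 0.29. Of the 20, 3 were called higher, where 0.874% of all genes were. The calls of the 5 replication members rest on 2 arrays a side, and none of the 5 held in every fit with an array left out. In those fits the difference ran from 0.60 to 0.73 for ORC1, 0.49 to 0.78 for CDC6 and 0.50 to 0.74 for CCNE1. It ran from 0.44 to 0.69 for TK1 and 0.46 to 0.57 for MCM4.

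Between the lines without induction, the U-H01 arrays had less of most replication messages than the HBL-1 arrays. All HBL-1 arrays came from population C and all U-H01 arrays from B1 and B2. Line therefore cannot be told apart from transduced population or hairpin in any comparison of the lines. Of 43 members, 32 passed, where 42.9% of all genes did, with 27 lower, where 22.1% of all genes were, and 5 higher, where 20.8% were. The median was -0.50 against -0.03 over all genes. In 28 members all uninduced U-H01 arrays lay below both uninduced HBL-1 arrays, where 29.7% of all genes did, and in 8 all lay above, where 25.6% did. The largest deficits were in TK1, MCM5, POLD3, MCM4, RFC4 and E2F2, at -1.83, -1.76, -1.55, -1.53, -1.42 and -1.33. The 5 higher in U-H01 were PRIM1 at 1.64, RRM2 at 0.60, CCNE1 at 0.50, DTL at 0.50 and CDT1, the licensing factor that DTL helps to remove, at 0.37.

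TK1 was at 7.91 and 7.69 in uninduced B1 arrays and 8.45 and 8.28 in uninduced B2 arrays of U-H01, against 9.95 and 9.88 in uninduced HBL-1 arrays. MCM5 was at 9.11 and 9.30 in uninduced B1 arrays and 9.33 and 9.31 in uninduced B2 arrays, against 11.02 on both uninduced HBL-1 arrays. POLD3 was at 7.62 and 7.46 in uninduced B1 arrays and 7.68 and 7.65 in uninduced B2 arrays, against 9.18 and 9.12 in uninduced HBL-1 arrays. The lines did not overlap for any of the 3, and their adjusted p-values were 1.38e-06, 2.98e-08 and 1.11e-07. PRIM1, with the U-H01 values given above, was at 9.31 and 9.44 in uninduced HBL-1 arrays, and its adjusted p was 3.07e-08. RRM2 was at 9.45 and 9.55 in uninduced HBL-1 arrays, below every uninduced U-H01 array, with an adjusted p of 5e-04. By role, 6 of 10 licensing genes, 5 of 6 helicase activation genes, 4 of 7 polymerase and primase genes, 4 of 7 clamp and joining genes, 2 of 4 nucleotide supply genes, 3 of 5 G1/S control genes and 3 of 4 chromatin genes were lower in U-H01.

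**Figure D5:**
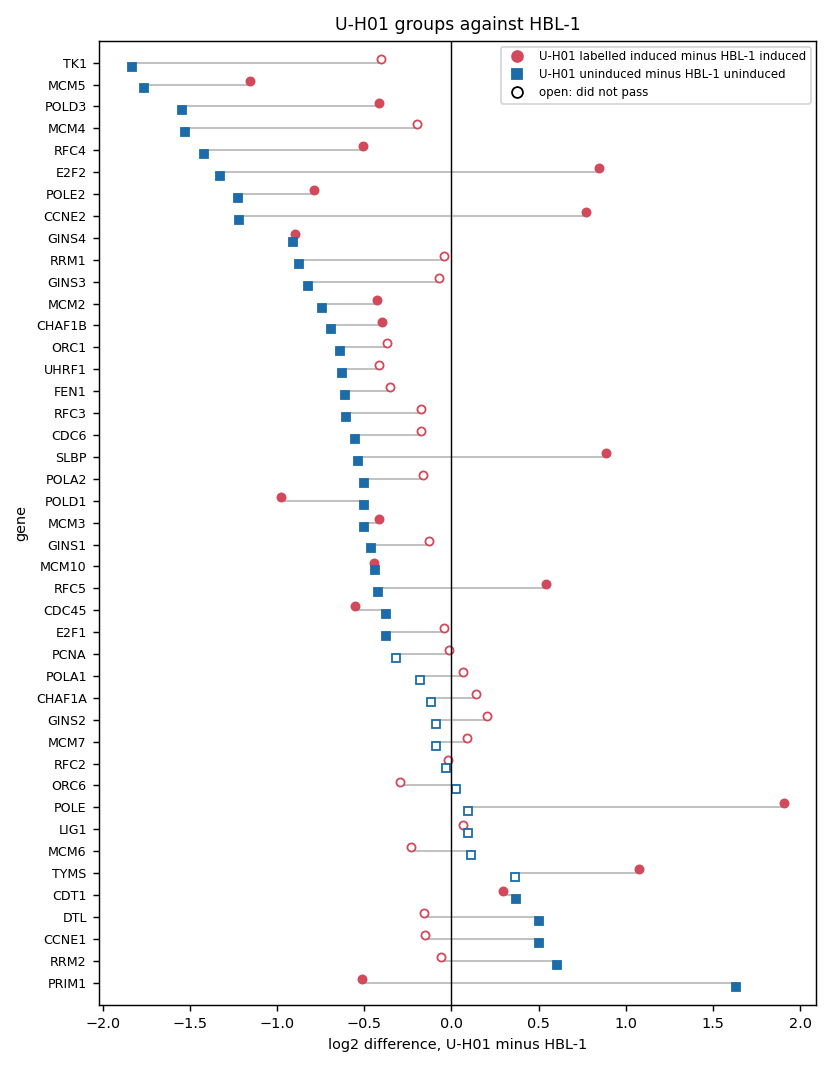
Log2 difference between U-H01 and HBL-1 for each of the 43 genes, with red circles for U-H01 arrays labelled induced minus induced HBL-1 arrays and blue squares for uninduced U-H01 arrays minus uninduced HBL-1 arrays. Filled points passed the test and open points did not. Most blue squares lie left of 0, and POLE, E2F2, CCNE2 and SLBP have their red circle right of 0.

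Between U-H01 arrays labelled induced and induced HBL-1 arrays, the median over the members was -0.16 against 0.00 over all genes. Here 19 members passed, where 38.6% of all genes did, with 12 lower, where 20.6% were, and 7 higher, where 18% were. Without overlap, 17 members were lower, where 25.5% of all genes were, and 7 higher, where 22.9% were. The 6 largest on the lower side were MCM5 at -1.16, POLD1 at -0.98, GINS4 at -0.90, POLE2 at -0.79, CDC45 at -0.55 and PRIM1 at -0.51. On the higher side were POLE at 1.91, TYMS at 1.07, SLBP at 0.89, E2F2 at 0.85, CCNE2 at 0.77 and RFC5 at 0.54, followed by CDT1 at 0.30. The comparisons set different arrays against each other, but they are not independent. They come from the same fit with a shared spread and from the same populations. MCM5, at -1.76 in uninduced arrays, and GINS4, at -0.91, passed as lower in U-H01 in both. So did MCM2, MCM3, MCM10, CDC45, POLD1, POLD3, POLE2, RFC4 and CHAF1B, and CDT1 passed as higher in both. PRIM1, E2F2, CCNE2, SLBP and RFC5 passed with opposite signs.

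POLD1 was at 7.84 and 7.57 in B1 arrays labelled induced and 7.72 and 7.74 in B2 ones, against 8.85 and 8.55 in induced HBL-1 arrays. GINS4 was at 7.88 and 7.45 in B1 arrays labelled induced and 7.57 and 7.53 in B2 ones, against 8.59 and 8.42 in induced HBL-1 arrays. TYMS was at 10.99 and 10.77 in B1 arrays labelled induced and 10.87 and 10.64 in B2 ones, against 9.99 and 9.50 in induced HBL-1 arrays. None of these 3 overlapped, with adjusted p-values of 1.5e-05 for POLD1, 8.79e-05 for GINS4 and 0.000127 for TYMS. SLBP was at 9.51 and 9.58 in B1 arrays labelled induced and 9.66 and 9.14 in B2 ones, against 8.75 and 8.42 in induced HBL-1 arrays, and its adjusted p was 0.000155. Single HBL-1 arrays carried many of the calls between the lines. Without the uninduced HBL-1 array of time point 2, 13 members were lower and 3 higher in uninduced U-H01 arrays, and without that of time point 1, 1 was higher. Without the uninduced B2 array of time point 1, 3 were higher. Between U-H01 arrays labelled induced and induced HBL-1 arrays, 3 were lower without the induced HBL-1 array of time point 1, and 4 were higher without that of time point 2.

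The change between labels itself differed between the lines for 18 members, where 32.5% of all genes differed. It was more positive in U-H01 for 14, where 15.5% of all genes were, led by E2F2, CCNE2, POLE, TK1, SLBP and MCM4. It was more negative for 4, PRIM1, RRM2, DTL and POLD1, where 17% of all genes were. E2F2 changed by 2.18 ± 0.15 more in U-H01 than in HBL-1 (SE, adjusted p = 3.05e-07), with pair differences of 2.05, 2.02, 1.84 and 1.84 in U-H01 and -0.01 and -0.46 in HBL-1. PRIM1 changed by -2.15 ± 0.14 (adjusted p = 1.39e-07), with pair differences of -2.00, -2.27, -2.31 and -2.25 in U-H01 and 0.01 and -0.13 in HBL-1. In both genes every U-H01 pair lay outside the range of the HBL-1 pairs. Without either HBL-1 array of time point 1, 1 member was lower in place of 4. With the replicate block, POLD1 and RFC3 were no longer called.

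Lists of related genes were counted beside the 43. Between the U-H01 labels, where 22.4% of all genes rose and 23.5% fell, 18 of 35 other replication factors rose and 5 fell, among them RPA1 of the single-strand binding complex, at 1.37 ± 0.08 (SE), and the nuclease DNA2, at 1.14 ± 0.11. Of 15 E2F and RB family genes 7 rose and 4 fell, with the E2F partners TFDP2 at -1.73 ± 0.11 and TFDP1 at 0.90 ± 0.10. Of 19 other S-phase genes 8 rose and 5 fell, with CDCA7 at -1.69 and CDK2, the kinase partner of cyclin E, at -1.23. Of 11 other nucleotide supply genes 4 rose and 4 fell, with CTPS2, a CTP synthase, at -3.95 ± 0.14 and TK2, the mitochondrial thymidine kinase, at -1.37 ± 0.11. Of 20 mitosis genes 8 rose and 8 fell, with CENPF at -1.35 and the checkpoint kinase BUB1B at 1.58.

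Between uninduced U-H01 and uninduced HBL-1 arrays, where 22.1% of all genes were lower and 20.8% higher, 19 of 35 other replication factors were lower and 3 higher, among them POLD4 at -1.22 and DSCC1 at -1.35. Of 20 mitosis genes 7 were lower and 6 higher, with CDK1 at -1.03 and NUSAP1 at 0.94. RB1, the retinoblastoma gene, was lower in U-H01 than in HBL-1, by -1.65 ± 0.11 in uninduced arrays (SE, adjusted p = 7.6e-08) and by -2.13 ± 0.11 between U-H01 arrays labelled induced and induced HBL-1 arrays (adjusted p = 8.01e-09). TFDP1 was at -1.98 ± 0.12 in uninduced arrays (adjusted p = 3.36e-08). Of 15 E2F and RB family genes 6 were lower and 4 higher in uninduced arrays, and of 19 other S-phase genes 9 were lower and 5 higher, with HELLS at -1.74 and MELK at 1.24. Of 11 other nucleotide supply genes 4 were lower and 4 higher, with TK2 at 1.61 and SAMHD1 at 1.15.

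Time point 2 was not separated from time point 1 by the test. In limma 0 members and 0 of all genes passed in either line, and at an unadjusted p under 0.05, 7 members were lower in U-H01, where 4.06% of all genes were, and 1 in HBL-1, where 2.44% were, and 0 were higher, where 3.76% were in U-H01 and 1.83% in HBL-1. The members leaned lower at time point 2 in some arrays and not in others. They were lower in 38 of 43 in B1 and in 38 in B2 arrays labelled induced, against 19 in uninduced B1 and 37 in uninduced B2 arrays, where 50.9%, 47.9%, 48.8% and 55.7% of all genes were lower. In HBL-1, 42 were lower in the induced arrays and 16 in the uninduced arrays, where 53.3% and 50.3% of all genes were. Of the 7 in U-H01, ORC6 differed by -0.29 ± 0.10 (SE), CDT1 by -0.22 ± 0.09 and MCM10 by -0.22 ± 0.09, each with an adjusted p of 0.634. Each population and label had 1 array per time point.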

How the data were processed

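Total RNA of 12 samples was labelled with biotin and hybridised to 1 array each, per the labels' protocols. The authors deposited log2 values, made with RMA in Partek per the submitters' processing notes; no version numbers are given there. Of 33297 probe sets, 19460 had 1 gene symbol, 1754 several and 12083 none, and for each of 18417 genes the probe set with the highest mean was kept. The deposited values were not rescaled. They were fitted in limma 3.58.1 (R 4.3.3) with 7 terms for population, time within line and induction within line, leaving 5 residual degrees of freedom, and with 8 terms where B1 and B2 had their own induction. Array number limits precision. Members and gene lists were chosen with earlier results of these data known. By rule, the named genes were the members past the threshold by size, up to 6 each way, the member with the highest mean in each role, and the 2 of each further list with the smallest p-values. The text departs from it: all 43 members are named between the U-H01 labels, not every list has its 2 genes named in every comparison, and TNFRSF8, GATA3 and the HBL-1 members with the smallest p-values were named after their values were seen. Pairs came from splitting each transduced population, per the labels' protocols, and the deviations of paired arrays correlated at -0.03 to 0.14. Alternatives were the pair as a block, quantile normalization, median centring, level filters, all probe sets, no time term, trend and robust options, fewer arrays, and each array left out. The fits were also run on simulated data with independent noise on each array. That checks the estimates and cannot show whether the arrays of a group are independent.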

Additional observations from a re-analysis of the deposited data

Results flagged for a closer look

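For 18 members the change between labelled induced and uninduced arrays differed between U-H01 and HBL-1 by the interaction term in limma, where 32.5% of all genes did, and each value here is the U-H01 change minus the HBL-1 change on the log2 scale. In origin licensing it was 1.33 for MCM4 (adjusted p = 0.000208) and 0.61 for MCM5 (adjusted p = 0.00712), and in helicase activation 0.75 for GINS3 (adjusted p = 0.0281). Among the polymerases it was 1.81 for POLE (adjusted p = 4.12e-07), 1.13 for POLD3 (adjusted p = 8.63e-05), -2.15 for PRIM1 (adjusted p = 1.39e-07) and -0.48 for POLD1 (adjusted p = 0.039). In the clamp loader it was 0.96 for RFC5 (adjusted p = 0.000228), 0.91 for RFC4 (adjusted p = 0.00163) and 0.43 for RFC3 (adjusted p = 0.0459). In nucleotide supply it was 1.43 for TK1 (adjusted p = 0.000427), 0.83 for RRM1 (adjusted p = 0.000384), 0.71 for TYMS (adjusted p = 0.0288) and -0.66 for RRM2 (adjusted p = 0.00464). In G1/S control it was 2.18 for E2F2 (adjusted p = 3.05e-07), 1.99 for CCNE2 (adjusted p = 7.05e-05) and -0.66 for DTL (adjusted p = 0.00456), and for SLBP it was 1.43 (adjusted p = 8.64e-05). The calls of POLD1, RFC3, RRM2 and DTL were lost without either HBL-1 array of time point 1, at adjusted p up to 0.365, and those of MCM5, GINS3, RFC3 and TYMS without either HBL-1 array of time point 2, at adjusted p up to 0.31.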

How the results depend on the processing

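No called member changed sign under the alternatives run. With the pair of arrays as a replicate block, 13 members were higher between the U-H01 labels, GINS4 was lost, and POLD1 and RFC3 lost their difference between the lines. Median centring gave 6 members lower between the U-H01 labels and 3 higher between the uninduced lines. With all probe sets, 12781 were called between the U-H01 labels, 58 in HBL-1, 3 for the change in B2 minus that in B1, and 176 for B2 against B1 uninduced, where 0 members were higher. Fitting 1 line alone called 945 genes and 8 members lower in HBL-1, 103 genes for time in HBL-1, 44 for the change in B2 minus that in B1 and 378 for B2 against B1 uninduced. With all 4 HBL-1 arrays in place of 2, 8 members were higher in uninduced U-H01 arrays and 22 lower in U-H01 arrays labelled induced. Testing genes above the median level gave 3 members lower for the change in B2 minus that in B1 and 10 higher for B2 against B1 uninduced; the trend and robust options gave 4 and 9, with 222 genes for the change, and quantile normalization gave 8 for B2 against B1. In fits without the 4 U-H01 arrays labelled induced, chosen after seeing the data, HBL-1 had 2 members lower and 322 genes called, and B2 against B1 uninduced had 10 members higher and 1051 genes called. With each array left out in turn, members lower between the U-H01 labels numbered 8 to 15, and the median ran from -0.11 to 0.05. Genes called in HBL-1 numbered 8 to 149, with member medians of -0.40 to -0.15. Between uninduced lines 1 to 6 members were higher and 13 to 28 lower, and between U-H01 arrays labelled induced and induced HBL-1 arrays 4 to 7 were higher and 3 to 15 lower. The change between lines was lower for 1 to 5 members. For the change in B2 minus that in B1, 20 to 140 genes were called, and for B2 against B1 uninduced 0 to 6 members and 59 to 800 genes. The causes were not tested.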
